A study of Mus musculus with 7 samples.

Results

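The cornified envelope and epidermal barrier genes described here are 37 genes chosen by symbol from knowledge of the outer epidermis. The choice was made with earlier results of these data known. Of the 37 genes, 35 had at least 1 probe set annotated to them alone, 45 probe sets in all, out of 18193 genes with such a probe set. Flg2 and Sprr4 had none and have no value. The arrays came from wound-edge skin taken on day 5 after wounding from C57BL/6 mice. Animals 2, 3 and 4 were MFG-E8 WT, while animals 8, 10, 11 and 12 carried the MFG-E8 KO genotype, and each gave 1 array of total RNA. MFG-E8 is a secreted bridging protein through which phagocytes take up dying cells. Both genotypes were wounded, unwounded skin was not analysed here, and the labels give neither the design of the KO allele nor age, sex or litter. The comparison asks whether loss of MFG-E8 goes with other levels of epidermal barrier genes in wound-edge skin.

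The epidermis is renewed from a basal layer whose daughter cells move outwards, switch on differentiation genes in the spinous and granular layers and end as dead, cross-linked cornified cells. In the granular layer, transglutaminases weld involucrin, small proline-rich (SPRR) and late cornified envelope (LCE) proteins into the cornified envelope under the membrane. Filaggrin packs the keratin filaments, and lamellar granules deliver the lipids that seal the space between cells. Corneodesmosomes hold the dead cells together until kallikrein proteases, restrained by the inhibitor LEKTI, cut them loose. During wound closure the migrating epidermal tongue delays this programme and the skin behind it rebuilds the barrier.

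Of the measured members, 16 lie on chromosome 3 in the order Sprr2d, Sprr2h, Sprr1b, Sprr3, Sprr1a, Ivl, Lce1a1, Lce1b, Lce1a2, Lce1c, Lce1f, Lce3b, Lce1m, Flg, Hrnr and Rptn. This is the epidermal differentiation complex. The other 19 are spread over 12 chromosomes, among them Cnfn, Klk7 and Klk5 on chromosome 7, which also carries Mfge8. RefSeq windows (build GRCm38.p6) of 250 bases before the transcription start were searched for 28 of the 35. Aloxe3, Krt80, Lce1f, Ovol1, Dsc1, Dsg1a and Spink5 were left out of this search. The windows of the members and those of all genes may not have been chosen alike. The AP-1 motif TGANTCA, searched on both strands, occurred in 7 of the 28 (25%) against 7.82% of 27025 genes, and the TATA box motif TATAAA, also on both strands, in 11 of the 28 (39.3%) against 14.3%. The motif AACCGGTT of Grainyhead factors was in 0 of the 28 windows, against 0.137% of all genes. AP-1 matches were in Ivl, Sprr1a, Sprr1b, Sprr2d, Sprr2h, Flg and Rptn, all on chromosome 3, and no AP-1 match overlapped a TATA box match. The base at N was C or G, as in the AP-1 consensus, in Ivl, Sprr1a, Sprr2d and Sprr2h. In Sprr1b, Flg and Rptn it was A or T, so these match only the looser motif searched. The stretches below are shown for 5 of the 7 genes, chosen to show the match in the scaffold gene Ivl, in SPRR genes and in filaggrin-type genes. Each runs 5′ to 3′ on the strand of the gene and ends at the base before the start, with matches to either motif in capitals.
Ivl, chr3:92573736-92573865 (minus strand): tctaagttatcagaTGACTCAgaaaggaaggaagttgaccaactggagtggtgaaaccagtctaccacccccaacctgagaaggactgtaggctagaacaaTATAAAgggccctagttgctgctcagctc
Sprr1a, chr3:92485882-92486011 (minus strand): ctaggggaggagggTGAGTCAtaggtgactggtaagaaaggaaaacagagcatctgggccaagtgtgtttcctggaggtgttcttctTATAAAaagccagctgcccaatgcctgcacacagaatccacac
Sprr2d, chr3:92338940-92339139 (plus strand): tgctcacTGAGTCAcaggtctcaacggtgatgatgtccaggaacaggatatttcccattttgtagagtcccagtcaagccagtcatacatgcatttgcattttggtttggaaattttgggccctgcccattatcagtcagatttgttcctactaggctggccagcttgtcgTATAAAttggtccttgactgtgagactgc
Flg, chr3:93273416-93273545 (plus strand): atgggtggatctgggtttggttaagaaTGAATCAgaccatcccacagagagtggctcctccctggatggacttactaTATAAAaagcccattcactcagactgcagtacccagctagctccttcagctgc
Rptn, chr3:93393569-93393698 (plus strand): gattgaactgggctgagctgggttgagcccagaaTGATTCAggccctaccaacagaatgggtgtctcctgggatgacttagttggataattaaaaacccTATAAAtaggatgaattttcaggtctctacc
The AP-1 match begins 116 bases before the start in Ivl and Sprr1a, 103 in Flg, 96 in Rptn and 193 in Sprr2d, and Sprr1a has a further match at 146 bases, outside the stretch shown. A match of letters is not evidence of binding.

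All values are log2 values from which the submitters had subtracted a baseline per probe set, so that 0 is no absence of signal and genes cannot be ranked by level. Differences between animals are unaffected. Rounding steps in the stored values gave a coarse level: 29 members were at 8 or above on the log2 scale in every array, 5 were between 4 and 8 in their lowest array (Sprr3, Abca12, Aloxe3, Alox12b and Grhl3), and Krt2 was under 4, near the floor of such arrays. The keratins of the epidermis (Krt5, Krt14, Krt1 and Krt10) and loricrin (Lor) were also at 8 or above in every array, so the defining markers of the labelled tissue were present. Mfge8 stood at 0.91, 0.76 and 0.996 in WT animals 2, 3 and 4 and at -0.64, -0.96, -1.14 and -1.30 in KO animals 8, 10, 11 and 12. It fell by 1.90 on the log2 scale (SE 0.16, limma adjusted p = 0.0169 over 18193 genes), with an exact two-sided permutation p = 0.0571, the smallest that 35 splits allow. Its signal was still at 8 or above in every KO array, and where its probe set lies relative to the KO allele is not known here. The call was lost when any animal other than KO animal 8 was removed. Removal of WT animals 2, 3 and 4 in turn gave limma adjusted p values of 0.203, 0.092 and 0.0659, and removal of KO animals 10, 11 and 12 gave 0.119, 0.0859 and 0.0522.

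No barrier gene passed the test between genotypes. Of the 35 members 0 had a limma adjusted p under 0.05 (background 0.0275% of 18193 genes), and the lowest was 0.575, for the desmosomal cadherin Dsg1a. At an unadjusted p under 0.05 the members held 1 gene that was higher in KO, Dsg1a, against 2.26% of all genes, and 0 that were lower, against 5.94%. In 0 members did all KO animals lie above all WT animals or below them, where 3.3% and 5.14% of all genes did. Among the 45 probe sets of the members 2 had an unadjusted p under 0.05, of Ivl and Dsg1a, against 7.39% of all 45037, and 0 passed after adjustment, against 0.0444% (lowest limma adjusted p = 0.597). By sign alone, 14 members were higher and 21 lower in KO, with a median difference (KO minus WT) of log2 -0.034, beside a median of 0.0038 over all genes.

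The differences ran from log2 -0.73 for Sprr2d, an SPRR envelope protein, to 0.58 for involucrin (Ivl), and their 95% intervals were wide, with a median half-width of log2 0.95. For 12 members, among them Flg, Tgm1, Klk7, Spink5 and Ivl's neighbour Lce1a1, the interval lay wholly inside log2 -1 to 1, so that a doubling or halving fell outside it. For 7 the interval reached past both bounds. For most barrier genes these 7 arrays therefore cannot tell a change of that size from none. In 31 of the 35 the pooled spread within genotypes exceeded the difference between them.

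**Figure D1:**
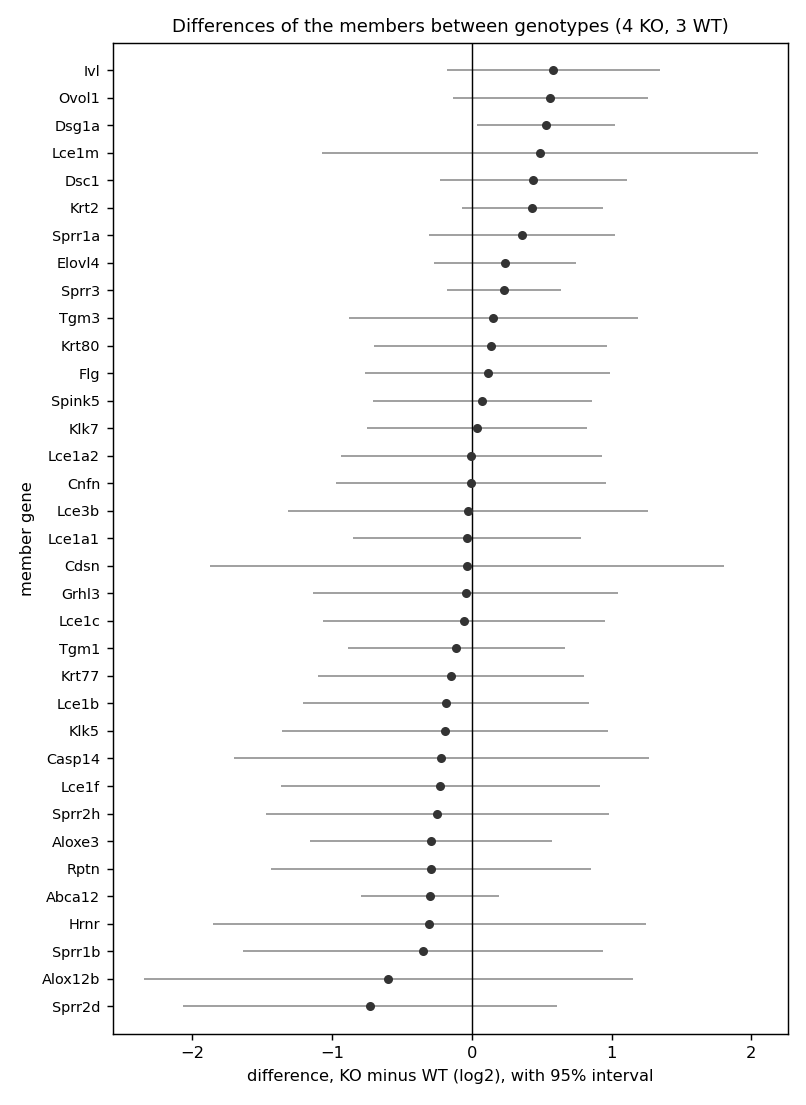
Difference between genotypes (KO minus WT, log2, horizontal axis) of the 35 measured members, as points with 95% intervals from limma (4 KO and 3 WT animals), ordered by size. The interval of Dsg1a (0.035 to 1.03) leaves out 0 before adjustment, and the other 34 cross it.

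The members spread widely between animals of the same genotype. The within-group SD, pooled over both genotypes, had a median of log2 0.67 over the members, against 0.19 over all genes and 0.19 over the 7547 genes at a level of 8 or above in every array. In 30 of the 35 it was above the 90th percentile of all genes. The largest were those of corneodesmosin (Cdsn, 1.30), the lipoxygenase Alox12b (1.24), Lce1m (1.11) and hornerin (Hrnr, 1.10), and the smallest that of Sprr3 (0.26).

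**Figure D2:**
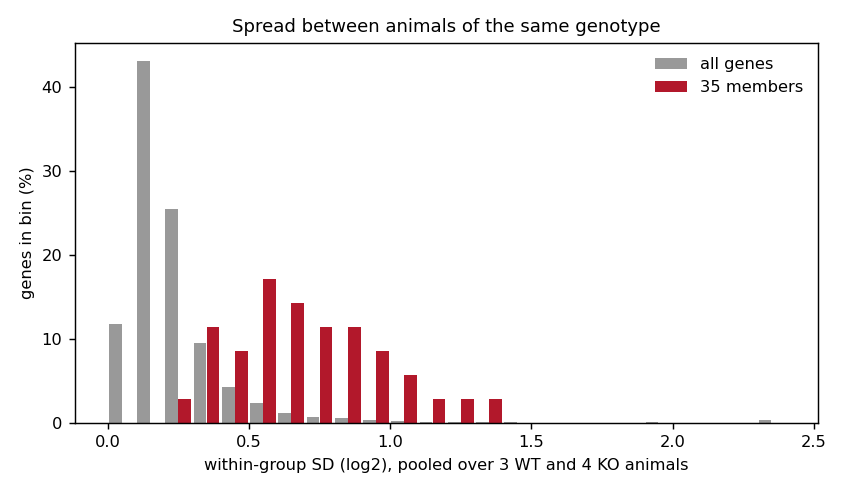
Distribution of the within-group SD (log2, bins of 0.1, values above the last bin counted in it) for all 18193 genes in grey and the 35 members in red, as percent of each set. The members (median 0.67) lie to the right of the bulk of genes (median 0.19).

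Low values of the members gathered in a few animals, which came from both genotypes. KO animal 8 was the lowest of the 7 animals in 23 members (65.7%), where it was lowest in 23.5% of all genes, and it lay below the other 3 KO animals in 32 of 35, against 34.8%. In 24 of 35 members it was at least log2 1 below the mean of the other KO animals, against 1.75% of all genes. Among WT animals, animal 3 lay below both others in 31 of 35 members, against 33.2%, and was lowest of all 7 in 9 (25.7%, against 13.5%). KO animals 11 and 12 both lay above KO animals 8 and 10 in 27 of 35 members, against 28.7%. They were the highest of all animals in 11 and 13 members, against 21.2% and 12.2% of genes, and WT animal 4 in 9, against 15.4%. The remaining lowest values were in WT animal 4 (2 members, 14.4% of genes) and KO animal 10 (1 member, 8.84%), while WT animal 2, KO animal 11 and KO animal 12 were lowest in 0 members, against 11.4%, 22.5% and 5.86% of genes. Krt2 was highest in KO animal 8 (17.4% of genes) and Ovol1 in KO animal 10 (8.33%), and WT animals 2 and 3 were highest in 0 members, against 13.3% and 12.2%. The median over the members was 0.091, -0.63 and 0.20 in WT animals 2, 3 and 4 and -0.93, -0.071, 0.38 and 0.50 in KO animals 8, 10, 11 and 12. In these bulk samples fewer cells of a layer and less RNA per cell cannot be told apart.

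**Figure D3:**
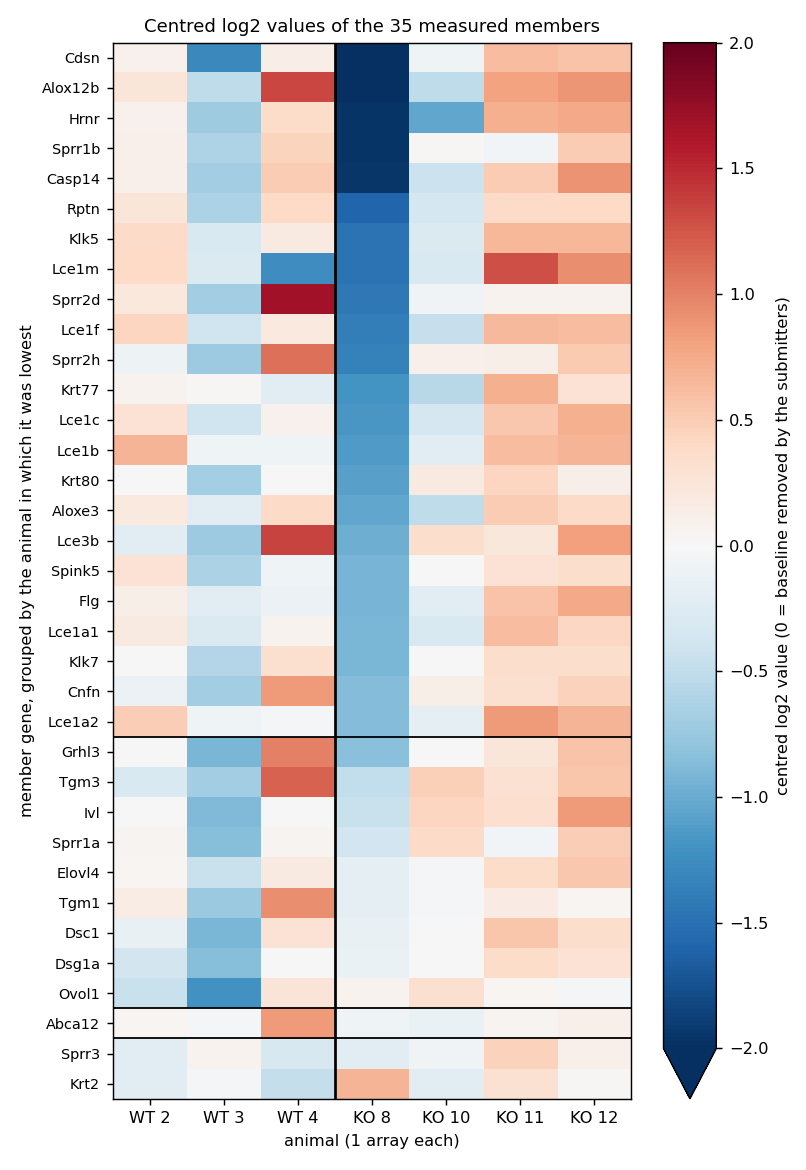
Centred log2 value of each measured member (rows) in each animal (columns, WT left and KO right of the vertical line), blue below and red above the baseline that the submitters removed. Rows are grouped by the animal in which the gene was lowest: 23 in KO animal 8, 9 in WT animal 3, 1 in KO animal 10 and 2 in WT animal 4.

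Among the precursors of the envelope, 14 of 15 were measured, 4 higher and 10 lower in KO, and none passed. Involucrin, a scaffold laid down early in envelope assembly, stood at 0.00087, -0.88 and -0.0034 in WT animals 2, 3 and 4 and at -0.45, 0.43, 0.33 and 0.85 in KO animals 8, 10, 11 and 12. WT animal 3 was lowest and KO animal 12 highest, and the groups overlapped through KO animal 8. The difference was log2 0.58 (SE 0.33, limma adjusted p = 0.706), and the second probe set of Ivl, at a lower level, gave 0.68. The cross-bridging protein Sprr1a stood at 0.048, -0.85 and 0.055 in WT and at -0.39, 0.38, -0.048 and 0.50 in KO. Here too WT animal 3 was lowest, and the difference was 0.36 (SE 0.29, limma adjusted p = 0.795).

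The other SPRR genes were lowest in KO animal 8, apart from Sprr3. Sprr2d was at 0.21, -0.70 and 1.67 in WT animals 2, 3 and 4 and at -1.43, -0.071, 0.077 and 0.071 in KO animals 8, 10, 11 and 12. Its WT values spanned more than the KO values, with WT animal 4 highest and KO animal 8 lowest of all, so that the difference of log2 -0.73 (SE 0.58, limma adjusted p = 0.792) moved to -0.090 on removal of WT animal 4, -0.37 on removal of KO animal 8 and -1.28 on removal of WT animal 3. Its neighbour Sprr2h repeated the order at the ends, with WT animal 4 at 1.11 and KO animal 8 at -1.35, and Lce3b, an LCE gene of a group known for induction after barrier injury, was at 1.35 and -0.98 in these animals. Sprr2h and Lce1m were each read only by a probe set of the _s_at class and Lce3b only by an _x_at set, classes that can bind transcripts of related genes. Sprr1b was far lower in KO animal 8 (-1.96) than in the other 6 animals (-0.61 to 0.50). Sprr3, which is typical of mucosal rather than skin epithelium, had the smallest within-group SD of the members (0.26), still above the median of all genes (0.19). It was at -0.23, 0.067 and -0.32 in WT and -0.21, -0.067, 0.47 and 0.10 in KO, with a difference of 0.23 (SE 0.18, limma adjusted p = 0.785).

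The LCE1 genes, which encode small cysteine-rich proteins added late to the envelope, were alike. Lce1a1, Lce1a2, Lce1b, Lce1c and Lce1f differed between genotypes by log2 -0.22 to -0.0020. All 5 were lowest in KO animal 8 (-1.39 to -0.87), and in each, KO animals 11 and 12 lay above KO animals 8 and 10. Lce1m, apart from them in gene order, also had KO animals 11 and 12 above the others (-1.48, -0.30, 1.29 and 0.93 in KO animals 8, 10, 11 and 12) but was low in WT animal 4 as well (0.40, -0.29 and -1.24 in WT), and differed by 0.49 (95% interval -1.07 to 2.05). The windows before Lce1a1, Lce1a2 and Lce1b were identical in 76% to 77.2% of their 250 bases after alignment, against a median of 53.2% over the 55 pairs of LCE and SPRR windows. Whether the probe sets of these paralogues read each other's transcripts was not tested. Cornifelin (Cnfn), another envelope component, was at -0.12, -0.70 and 0.84 in WT and -0.87, 0.12, 0.31 and 0.46 in KO, a difference of -0.0035.

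The genes of filaggrin-type proteins, which are built of repeats behind an S100 domain, were all lowest in KO animal 8. Filaggrin (Flg) stood at 0.11, -0.21 and -0.11 in WT animals 2, 3 and 4 and at -0.93, -0.22, 0.57 and 0.76 in KO animals 8, 10, 11 and 12. The 3 WT animals lay between KO animals 10 and 11, and the difference was log2 0.11 (SE 0.38, 95% interval -0.76 to 0.99, limma adjusted p = 0.964). Hornerin was at 0.091, -0.71 and 0.37 in WT and at -1.96, -1.04, 0.71 and 0.76 in KO. It was low in both KO animals 8 and 10 and high in KO animals 11 and 12, for a difference of -0.30 (SE 0.67, limma adjusted p = 0.943). Repetin (Rptn) was at -1.59, -0.36, 0.38 and 0.40 in KO, differed between genotypes by -0.29, and its 2 probe sets at lower levels gave 0.20 and -0.098.

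Both transglutaminases that cross-link the envelope were lowest in WT animal 3 and highest in WT animal 4. Tgm1, the membrane-bound enzyme, was at 0.14, -0.74 and 0.92 in WT animals 2, 3 and 4 and at -0.18, -0.033, 0.16 and 0.033 in KO animals 8, 10, 11 and 12. The KO values lay close together within the span of WT animals 3 and 4, and the difference was log2 -0.11 (SE 0.34, limma adjusted p = 0.961). Removal of WT animal 3 moved it to -0.53 and removal of WT animal 4 to 0.30. Tgm3, which is also used in hair follicles, was at -0.31, -0.69 and 1.18 in WT and -0.49, 0.48, 0.31 and 0.56 in KO (difference 0.16, SE 0.45, limma adjusted p = 0.959), and its probe set at a lower level gave 0.42.

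Of the corneodesmosome genes, the cadherins were lowest in WT animal 3 and corneodesmosin in KO animal 8. Dsg1a was at -0.36, -0.84 and 0.0045 in WT animals 2, 3 and 4 and at -0.14, -0.0045, 0.37 and 0.29 in KO animals 8, 10, 11 and 12. The means were -0.40 ± 0.43 for WT (SD, n = 3) and 0.13 ± 0.24 for KO (SD, n = 4). WT animal 4 lay above KO animals 8 and 10, so the groups overlapped, and the difference was log2 0.53 (SE 0.21, 1.45-fold, 95% interval 0.035 to 1.03, limma adjusted p = 0.575). Removal of WT animal 3 left 0.31, and removal of WT animal 4 left 0.73. The unadjusted p was no longer under 0.05 in 4 of the 7 fits that each left out 1 animal (2 or 3 of WT, 11 or 12 of KO). Dsc1, its desmocollin partner, was at -0.14, -0.91 and 0.28 in WT and at -0.15, -0.0079, 0.55 and 0.34 in KO, also lowest in WT animal 3, with a difference of 0.44 (SE 0.29, limma adjusted p = 0.743) and 0.55 and 0.33 from its probe sets. Cdsn, the adhesive glycoprotein of the corneodesmosome, was at 0.091, -1.29 and 0.13 in WT and at -2.66, -0.091, 0.62 and 0.57 in KO. Its value in KO animal 8 was 8.18-fold below the mean of the other KO animals (log2 3.03 lower), the widest such gap among the members, and the genotypes differed by -0.034. Cdsn, Lce1m and Sprr1b were singled out after their values were seen.

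The proteases of the outer layers and their inhibitor were all lowest in KO animal 8. Casp14, a caspase that helps to process filaggrin, was at 0.10, -0.70 and 0.51 in WT animals 2, 3 and 4 and at -1.94, -0.44, 0.51 and 0.89 in KO animals 8, 10, 11 and 12. KO animal 8 was 4.81-fold below the mean of the other KO animals, and the difference between genotypes was log2 -0.22 (SE 0.64, limma adjusted p = 0.961), with 0.033 from the second probe set. The kallikreins Klk5 and Klk7, which cut corneodesmosomes, differed by -0.19 and 0.040. Klk5 ranged more widely between KO animals (-1.48, -0.29, 0.66 and 0.67) than Klk7 did (-0.91, 0.000069, 0.35 and 0.36). Spink5, the gene of LEKTI, which restrains both, was at -0.93, 0.012, 0.28 and 0.36 in KO and differed by 0.076.

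Among the genes of barrier lipids the lipoxygenases varied most. Alox12b, which oxidises the linoleate of barrier ceramides, was at 0.24, -0.51 and 1.33 in WT animals 2, 3 and 4 and at -2.14, -0.51, 0.80 and 0.88 in KO animals 8, 10, 11 and 12. KO animal 8 was lowest and WT animal 4 highest, and the difference was log2 -0.60 (SE 0.76, 95% interval -2.35 to 1.15, limma adjusted p = 0.876). Aloxe3, the next enzyme of this route, also on chromosome 11, was at 0.20, -0.22 and 0.38 in WT and at -1.04, -0.51, 0.50 and 0.39 in KO (difference -0.29, SE 0.37, limma adjusted p = 0.882). Both enzymes were low in KO animals 8 and 10 and high in the other KO animals. Abca12, the lipid transporter of lamellar granules, was at 0.044, -0.044 and 0.86 in WT and at -0.089, -0.13, 0.058 and 0.10 in KO. WT animal 4 was highest and the other 6 lay between -0.13 and 0.10, and the difference of -0.30 (SE 0.21, limma adjusted p = 0.766) was -0.014 without it. Elovl4, an elongase of very long fatty acids, was at 0.041, -0.44 and 0.19 in WT and at -0.20, -0.041, 0.36 and 0.54 in KO, a difference of 0.24 (SE 0.22, limma adjusted p = 0.821), with 0.23 and 0.25 from its probe sets.

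Of the suprabasal keratins, Krt2 was the exception to the low values of KO animal 8. It was at -0.20, -0.021 and -0.48 in WT animals 2, 3 and 4 and at 0.68, -0.22, 0.31 and 0.021 in KO animals 8, 10, 11 and 12, highest in KO animal 8, for a difference of log2 0.43 (SE 0.22, limma adjusted p = 0.666), but its level was under 4, near the floor. Krt77 was lowest in KO animal 8 (-1.20) and highest in KO animal 11 (0.71), and the genotypes differed by -0.15. Krt80, a keratin of differentiated epithelia, was likewise lowest in KO animal 8 (-1.09) and differed by 0.14.

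The transcription factors were lowest in WT animal 3. Ovol1, a zinc finger factor that promotes exit from the cell cycle, was at -0.45, -1.21 and 0.26 in WT animals 2, 3 and 4 and at 0.069, 0.32, 0.035 and -0.035 in KO animals 8, 10, 11 and 12. The KO values lay between -0.035 and 0.32, WT animal 4 lay among them, and the difference of log2 0.56 (SE 0.30, limma adjusted p = 0.691) became 0.19 on removal of WT animal 3 and 0.93 on removal of WT animal 4. Its second probe set gave 0.66. Grhl3, a Grainyhead factor needed for barrier formation, was at 0.0083, -0.91 and 1.01 in WT and at -0.84, -0.0083, 0.25 and 0.57 in KO and differed by -0.044, with WT animal 4 highest.

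Other genes of the barrier, from lists of textbook genes also chosen with earlier results known, were read beside the members. Of 29 measured further envelope genes 9 were higher and 20 lower in KO (median log2 -0.064), 1 of them higher with an unadjusted p under 0.05, Scel, the gene of sciellin (log2 0.49, limma adjusted p = 0.496), and 0 lower, against 2.26% and 5.94% of all genes. KO animal 8 was the lowest animal in 18 of the 29. Next in order of p were the protease inhibitor Cst6 (log2 difference 0.48), the envelope gene Crct1 (0.43) and the trichohyalin relative Tchhl1 (3.21), the largest difference of the list, at a level under 4 and high in KO animals 8 and 10 alone. Of 23 further enzymes of barrier lipids and protein processing 16 were higher and 7 lower (median 0.060), with 0 at an unadjusted p under 0.05, against the same 2.26% and 5.94%. KO animal 8 was lowest in 11 of these and WT animal 3 in 9.

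All 13 measured desmosome and tight junction genes outside the members were higher in KO (median log2 0.34), where 50.9% of all genes were. At an unadjusted p under 0.05, 3 of them were higher against 2.26% of all genes, and 0 lower against 5.94%. None passed when adjusted over all genes. The tight junction genes Cldn1 and Ocln differed by 0.87 (SE 0.23, limma adjusted p = 0.4) and 0.54 (SE 0.20, limma adjusted p = 0.519), and the desmosomal plaque gene Dsp by 0.41 (SE 0.15, limma adjusted p = 0.533). The value of Cldn1 rests on 1 of its 4 probe sets, and the others, at lower levels, are not given here. Cldn1 was at -0.18, -1.08 and -0.23 in WT animals 2, 3 and 4 and at 0.45, 0.64, 0.18 and 0.23 in KO animals 8, 10, 11 and 12. All its KO values lay above the WT values, and KO animal 8 was among the high ones. WT animal 3 was lowest in 10 of the 13. Of 17 further regulators of differentiation 12 were higher and 5 lower (median 0.23). At an unadjusted p under 0.05, 3 were higher, namely Gata3 (0.61), Grhl2 (0.34, from 1 of its 4 probe sets) and Grhl1 (0.63), against 2.26% of all genes. At that p 0 were lower, against 5.94%. None of the 17 passed (lowest limma adjusted p = 0.463). WT animal 3 was lowest in 9 of them.

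The marker lists show what else differed between these animals. Basal keratinocyte markers (8 of 8 measured, all at a level of 8 or above) had medians of 0.036, -0.17 and 0.14 in WT animals 2, 3 and 4 and -0.32, -0.049, 0.39 and 0.36 in KO animals 8, 10, 11 and 12, and spinous markers (6 of 6) 0.17, -0.21 and 0.11 and -0.88, -0.15, 0.37 and 0.34. KO animal 8 was thus lower for the spinous than for the basal list, as in Krt1 (-1.38) beside Krt14 (-0.39). The spinous gene Calml3 was an exception, at -0.15 in KO animal 8 and lowest in WT animal 4. Markers of wound-edge keratinocytes (7 of 8) had medians of 0.032, -0.10 and 0.29 and -0.63, -0.12, 0.14 and 0.27, and sebaceous gland markers (4 of 7) -0.015, -0.20 and 0.060 and -0.26, -0.046, 0.20 and 0.54. Hair shaft and inner root sheath markers (20 of 21, with 9 at a level under 4) were at 0.85, -1.79 and -2.62 in WT and at 4.18, 4.39, -2.68 and -0.85 in KO, so that KO animals 8 and 10 shared high hair values while their member medians were -0.93 and -0.071. Their part in the member differences was not tested beyond the covariate fit below.

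Skeletal muscle markers (7 of 7, median difference log2 -0.55) were lowest in KO animals 8 and 10 (-1.20, -0.73, 0.042 and -0.037 in KO animals 8, 10, 11 and 12) and highest in WT animal 3 (-0.18, 0.46 and 0.087 in WT). Endothelial markers (6 of 6, median difference -0.61, each lower in KO with an unadjusted p under 0.05, where 5.94% of genes were, and 0 passing after adjustment) were also highest in WT animal 3 (0.10, 0.66 and 0.18 in WT, -0.44, -0.56, -0.20 and -0.10 in KO), the WT animal with the lowest member median. Fibroblast markers (7 of 7, median difference -0.43) were at 0.49, 0.44 and -0.27 in WT and -0.026, -0.18, -0.43 and -0.0045 in KO. All 7 were lower in KO, 2 of them with an unadjusted p under 0.05. Neutrophil markers (4 of 6, median difference -0.73) were all lower in KO, 2 of them at that p, and their median was highest in WT animal 2 (1.16). The background for both lists is the same 5.94% of genes, and 0 of either passed after adjustment. Proliferation markers (5 of 6, median difference 0.093) were highest in KO animal 8 (0.42). What part the mix of tissue in each piece had in the barrier genes was not tested.

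**Figure D4:**
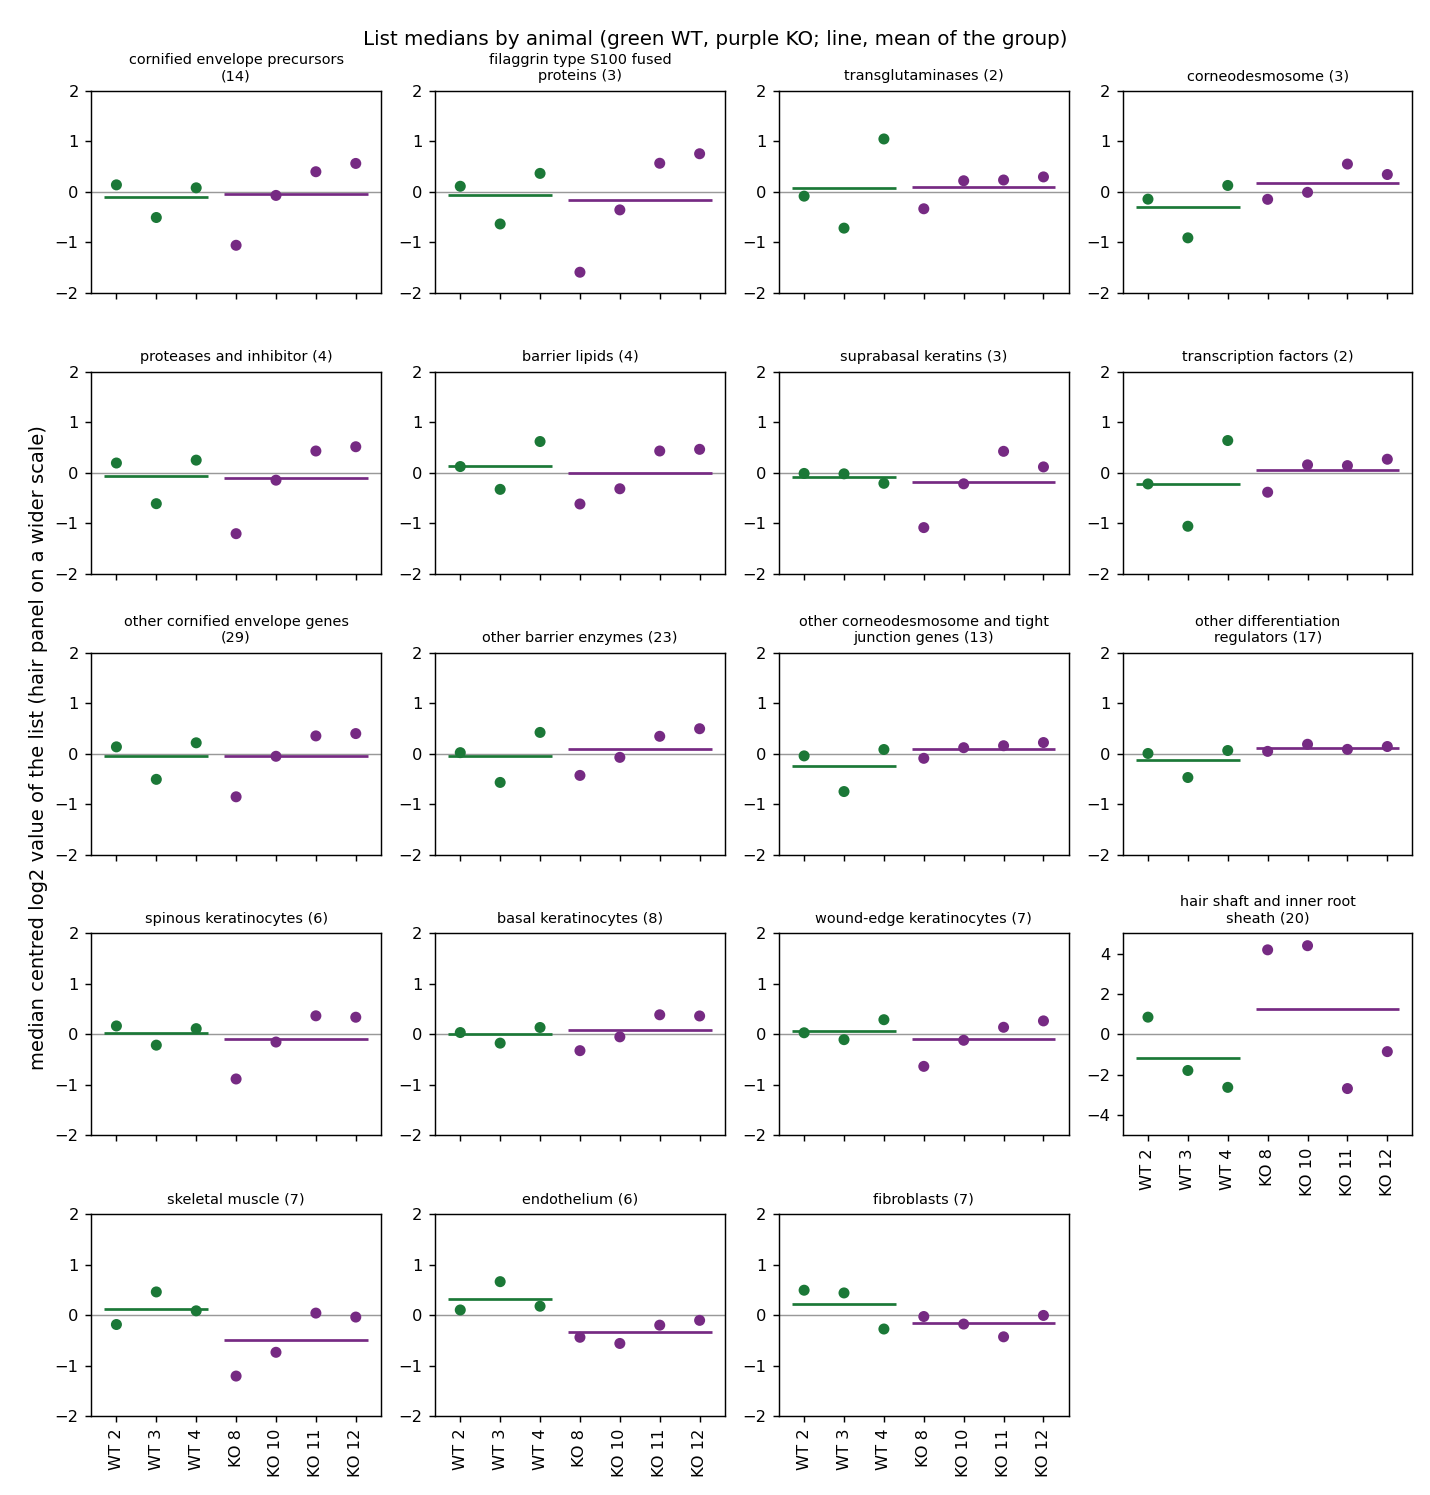
Median centred log2 value of each list (vertical axis, number of measured genes in parentheses) in each animal, green for WT and purple for KO, with a line at the mean of each group. KO animal 8 is the lowest KO animal for envelope precursors (-1.06) and filaggrin-type genes (-1.59) and, less far from the others, for other junction genes (-0.094), and the hair panel has a wider scale.

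Since single animals lay so far apart, the direction of the members was read without each of them. Without KO animal 8, 32 of 35 members were higher in KO (median log2 0.31), 2 of them with an unadjusted p under 0.05 (Ivl and Dsg1a, background 2.14%), 0 were lower at that p (5.61%), and 0 passed (lowest limma adjusted p = 0.554, background 0.022%). KO animal 8 lay below the other 3 KO animals in 32 of 35 members, so its removal was bound to raise their KO means. The shift is no separate evidence of a difference. Against 14 with all animals, the number higher was 18, 10 and 22 when WT animals 2, 3 and 4 were removed in turn, and 17, 10 and 11 on removal of KO animals 10, 11 and 12. With WT animal 3 removed, Tgm1 alone had an unadjusted p under 0.05 and was lower in KO (background 3.71%), 0 were higher (1.74%), and 0 of the members and of all genes passed. Without KO animals 8 and 10 together, the animals with high hair genes, 32 were higher (median 0.48) and 12 had an unadjusted p under 0.05, against 3.31% of all genes, with 0 lower (4.74%) and 0 passing (lowest limma adjusted p = 0.468, background 0.0055%). These 12 were Ivl, Sprr3, Lce1a1, Lce1a2, Lce1c, Lce1m, Flg, Hrnr, Dsg1a, Klk5, Elovl4 and Krt77, and that fit sets KO animals 11 and 12 alone against the WT animals. KO animals 11 and 12 both lay above KO animals 8 and 10 in 27 of 35 members. Removal of the lower pair was thus bound to raise most KO means, and the 12 are no separate evidence of a difference. With the mean of the hair markers as a covariate 33 were higher (median 0.36), 2 at an unadjusted p under 0.05 (Sprr3 and Dsg1a, background 3.47%), 0 were lower at that p (7.05%), and 0 passed (0.0495%). The hair medians were 4.18 and 4.39 in KO animals 8 and 10 and -2.68 to 0.85 in the others, so this covariate mostly marked the same pair. The covariate fit therefore largely repeats the removal of that pair, and its 33 are no separate evidence of a difference either. Which direction the barrier genes took thus turned on single animals, and in none of these fits did a member pass.

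**Figure D5:**
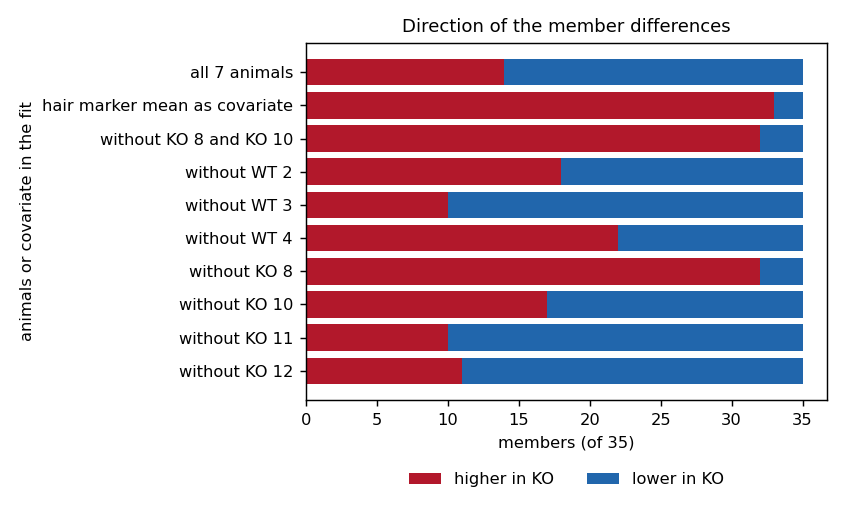
Number of the 35 members that were higher (red) or lower (blue) in KO, by sign of the difference alone, with all animals, with the hair marker mean as covariate and without the animals named on the vertical axis. The count of higher members runs from 10 without WT animal 3 or KO animal 11 to 33 with the covariate.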

How the data were processed

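The deposited values were log2 values as the authors processed them. The submitters' processing notes name GCRMA. Its version and the log base are not given in the sources used here, and the base was taken as 2, the scale of GCRMA, and a baseline per probe set had been subtracted by the authors, as the values around 0 show. Per the labels' protocols, total RNA was isolated with the miRVana kit, fragmented and labelled with biotin. After 64 control probe sets were left out, 45037 remained, of which 34945 carried 1 gene symbol in the platform annotation, 932 several and 9160 none. A gene's value was the mean over its probe sets with 1 symbol in its highest level band (levels at or above 8, from 4 to 8 or under 4, recovered from rounding steps, right for 97.2% of 3000 simulated probe sets). KO was compared with WT by limma 3.58.1 (lmFit, eBayes) in R 4.3.3, unpaired and without covariates, with Benjamini-Hochberg adjustment over 18193 genes. On simulated data of 18193 genes, the test recovered 72% of the changes of log2 1 and 93% of the changes of log2 2, and 7.3% of its calls were false. The 200 changed genes were drawn from all genes, and the noise was independent between genes. Members spread more (median within-group SD 0.67 against 0.19 over all genes), so these shares do not describe the barrier genes. Python 3.11.15, pandas 2.3.3, numpy 2.4.6 and matplotlib 3.10.9 were used.

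The members and lists were chosen with earlier results of these data known. Values per animal are given for the 12 members with the smallest p, the member with the largest difference in each role group, and further ones chosen after values were seen. Up to 4 genes with the smallest p are named per list of other barrier genes. Krtdap, Dmkn, Sbsn and Calml3 are in both an envelope and the spinous list. Alternatives covered scaling, the variance model, the value of a gene, low levels, a covariate and leaving out animals.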

Additional observations from a re-analysis of the deposited data

Results flagged for a closer look

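In a search for KO animals far from the other KO animals in 59 results (members, Mfge8 and list medians), where chance alone flags about 1 in 20, KO animal 8 stood out in 2. Its value of Sprr2d was -1.43, beside -0.071 to 0.077 in the other 3 KO animals. Its median of the transglutaminases Tgm1 and Tgm3 was -0.33, beside 0.22 to 0.30. WT animals, being 3, were not searched.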

How the results depend on the processing

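The count of 0 members passing held under every alternative run: quantile normalization, array medians subtracted, a trended and a robust eBayes, weighted arrays, all probe sets of a gene, only probe sets outside the _x_at, _s_at and _a_at classes (4 members without a value), levels of at least 4 (Krt2 left out), an adjusted p of 0.1, the hair covariate, and fits without animals. The lowest limma adjusted p of a member was 0.219, with array weights. The median difference of the members ran from log2 -0.25 to 0.31 without 1 animal and from -0.036 to 0.48 otherwise, so it had no stable sign. Mfge8 had no value with only those probe sets and was lower in KO in all other fits. It was log2 -2.06 with an adjusted p = 0.0676 after quantile normalization, and -2.03 to -1.81 without 1 animal. No paired analysis was possible because the genotypes share no animal numbers.

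Of 590 member values under alternatives, 93 had the opposite sign to the value with all animals, 46 of them in fits without 1 animal, and 11 members never changed sign. None of these values was called, and the cause was not tested. Without KO animals 8 and 10 together the opposite sign was found for Cnfn 0.38, Sprr1b 0.25, Sprr2h 0.22, Lce1a1 0.53, Lce1a2 0.64, Lce1b 0.48, Lce1c 0.63, Lce1f 0.56, Lce3b 0.39, Hrnr 0.82, Rptn 0.39, Cdsn 0.95, Casp14 0.73, Klk5 0.58, Aloxe3 0.32, Alox12b 0.49, Krt77 0.54 and Grhl3 0.37. With the hair covariate it was found for Cnfn 0.32, Sprr1b 0.048, Sprr2h 0.15, Lce1a1 0.35, Lce1a2 0.39, Lce1b 0.19, Lce1c 0.38, Lce1f 0.28, Lce3b 0.36, Hrnr 0.48, Rptn 0.17, Tgm1 0.011, Cdsn 0.62, Casp14 0.44, Klk5 0.31, Aloxe3 0.15, Alox12b 0.23, Krt77 0.33 and Grhl3 0.29. Quantile normalization gave Cnfn 0.036, Lce1a1 0.019, Lce1a2 0.12 and Lce1c 0.065, and array weights, with the largest weight of 3.38 on KO animal 10, gave Cnfn 0.17, Sprr2h 0.038, Lce3b 0.31, Flg -0.051, Cdsn 0.10 and Grhl3 0.085. Without 1 animal, the values ranged as follows for the members that changed sign: Cnfn -0.36 to 0.41, Sprr1b -0.64 to 0.18, Sprr2h -0.66 to 0.26, Lce1a1 -0.26 to 0.25, Lce1a2 -0.25 to 0.33, Lce1b -0.41 to 0.19, Lce1c -0.31 to 0.31, Lce1f -0.49 to 0.19, Lce3b -0.46 to 0.58, Flg -0.13 to 0.44, Hrnr -0.68 to 0.22, Rptn -0.61 to 0.14, Tgm1 -0.53 to 0.30, Tgm3 -0.22 to 0.71, Cdsn -0.50 to 0.72, Casp14 -0.60 to 0.35, Klk5 -0.45 to 0.26, Klk7 -0.21 to 0.33, Spink5 -0.17 to 0.36, Aloxe3 -0.51 to 0.0037, Alox12b -1.03 to 0.036, Krt77 -0.45 to 0.19, Krt80 -0.093 to 0.47 and Grhl3 -0.52 to 0.44. The number of arrays and the spread between animals limit all of these.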

Other observations

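Some barrier genes outside the members were high in the animals with high hair markers. Tchhl1 stood at 4.99 and 4.82 in KO animals 8 and 10 and between -1.77 and 0.14 in the other 5 animals. The deiminase Padi1 was at 2.60 and 3.08 in the same animals, against -1.49 to 0.34, and the membrane protease St14 at 0.92 and 1.14, against -0.76 to 0.018. None passed the test (limma adjusted p = 0.652, 0.675 and 0.64).

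WT animal 4, highest for Sprr2d, Sprr2h, Lce3b, Tgm1, Tgm3, Cnfn, Abca12, Alox12b and Grhl3, was also far above all others for Defb3, an antimicrobial defensin of keratinocytes, at 5.17 against -0.63 to 1.11 in the other 6 animals. The genotypes differed by log2 -1.54 in this gene (SE 1.20, limma adjusted p = 0.789). Defb3 is 1 of 7 measured markers of wound-edge keratinocytes, and WT animal 4 was highest in only 2 of the 7, where it was highest in 15.4% of all genes.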
